A study of Mus musculus with 12 samples.

Results

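This section describes 6 genes of the mouse oocyte and its follicle: the growth factor genes Gdf9 and Bmp15, the transcription factor genes Figla, Nobox and Lhx8, and the receptor gene Kit. The rule takes them by name and uses no measured value, but the names were chosen with earlier results of these data known. All 6 were among the 11298 complete entries of a deposited gene table. Polyadenylated RNA of C57BL/6 mice was profiled by Smart-seq2, a full-length cDNA method for small inputs, with 10 oocytes or embryos in each library. The 6 groups were fully grown germinal vesicle (GV) oocytes, 1-cell embryos and 2-cell embryos of wild-type (Pabpn1l-WT, here WT) and of Pabpn1l-KO (here KO) genotype, with 2 libraries in each group. Oocytes came directly from the animal and embryos were grown in KSOM medium. The labels do not say whether KO refers to the mother, the embryo or both, how the mice were mated, or whether each library had its own animals. The p-values therefore set a difference only against the spread of these samples, estimated over all 6 groups, and that spread may be technical.

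GDF9 and BMP15 are secreted ligands of the transforming growth factor beta (TGF-beta) family through which the oocyte acts on the granulosa cells around it. FIGLA, a basic helix-loop-helix factor that binds E-boxes, and the homeobox factors NOBOX and LHX8 switch on oocyte genes while follicles form and grow. KIT is the receptor tyrosine kinase with which the oocyte receives KIT ligand from granulosa cells. Such transcripts are stored in the full-grown oocyte and are removed around meiotic maturation and after fertilization. PABPN1L is a poly(A)-binding protein made in oocytes, and the design asks how the transcriptome differs without it.

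Promoter windows of the RefSeq annotation (mouse build GRCm38.p6, 250 bases before the gene start) were held for 5 of the 6 genes, Bmp15, Figla, Nobox, Lhx8 and Kit. That of Bmp15 is shown because it held letters of all 3 kinds that the follicle factors are known to bind, and that of Figla as a transcription factor gene whose window held E-boxes alone. They are written 5′ to 3′ on the strand of the gene, with capitals for an E-box (CANNTG), a NOBOX element (TAATTG or TAATTA) or an LHX8 element (TGATTG), each searched on both strands with no overlap between matches in these windows. The Bmp15 window is chrX:6320725-6320974 on the minus strand and the Figla window is chr6:86016941-86017190 on the plus strand.
Bmp15: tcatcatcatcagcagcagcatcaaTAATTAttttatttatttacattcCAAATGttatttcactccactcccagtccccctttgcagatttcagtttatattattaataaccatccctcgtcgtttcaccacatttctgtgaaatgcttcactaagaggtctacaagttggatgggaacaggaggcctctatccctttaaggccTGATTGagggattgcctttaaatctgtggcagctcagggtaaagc
Figla: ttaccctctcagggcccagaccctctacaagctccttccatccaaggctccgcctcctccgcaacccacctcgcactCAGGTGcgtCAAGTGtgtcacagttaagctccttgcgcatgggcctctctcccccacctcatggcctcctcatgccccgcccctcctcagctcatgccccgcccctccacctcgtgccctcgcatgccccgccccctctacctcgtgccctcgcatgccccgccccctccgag

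The Bmp15 window held 1 match of each kind, with the LHX8 element 45 to 40 bases before the gene start. The Figla window held 2 E-boxes and 0 of the other elements, the Nobox window 2 E-boxes and 0 of the others, and the Lhx8 and Kit windows 0 of all 3. Of 32544 windows of the same length, 66.2% held an E-box, 11.3% a NOBOX element and 12.7% an LHX8 element. G and C made up 40.4% of the Bmp15 window and 67.2% of the Figla window. A match describes letters in the window only, and binding was not measured here.

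The deposited values are FPKM (fragments per kilobase of transcript, scaled to a fixed total of mapped fragments), so levels can be compared between genes. No value was below 1 FPKM, and a value of 1 stands for any level of 1 or less. Each embryo column was a table of 6-digit FPKM values multiplied by 1 number, the library factor, which was 1 in oocytes, 0.212 and 0.269 for WT 1-cell libraries, 0.432 and 0.552 for those of KO, and 0.116 to 0.130 at the 2-cell stage. What the factor was based on is not given in the sources used here, and the depth of the libraries is unknown. Every test between groups was therefore made on the deposited scale and again before the factor. In the latter the highest resulting minimum of the compared libraries was applied to all of them. Pabpn1l itself measured 204 to 220 FPKM in WT and 4.98 to 7.23 in KO oocytes, 12.2 to 16.4 in WT and 2.57 to 4.55 in KO 1-cell embryos, and 1 to 1.90 in the 2-cell libraries, where it cannot check the labels. The 9 oocyte markers summed to 18050 to 19880 FPKM in the 4 oocyte libraries, and none of them was at 1 FPKM there. Of 15 cumulus and granulosa cell markers 8 were in the table and summed to 78.6 to 90.9 FPKM in oocytes, of which Esr2 and Cyp19a1 were the largest, at 43.9 to 51.1 and 23.8 to 31.3 FPKM. Fshr was at 1 and 1.06 FPKM in WT oocytes and at 2.02 and 2.38 in KO, and Kitl at 2.24 and 1.77 in WT and 2.46 and 2.61 in KO. Hsd17b1 was at 1 and 1.17 FPKM in WT oocytes and at 1 in KO, and Amhr2 was at 1 FPKM in all oocyte libraries. Fshr and Amhr2 were at 1 FPKM in all 1-cell libraries. Inha, an inhibin gene on the same list, was at 3.05 and 9.49 FPKM in WT oocytes and at 1.07 and 1.53 in KO (log2 fold change −1.51 ± 0.34, limma adjusted p = 0.0735), and Gja1 was at 1.01 and 2.80 FPKM in WT and at 1.04 and 1 in KO. The part of these markers in the results was not tested.

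In GV oocytes the growth factor genes were among the most abundant of the table. In the WT libraries Gdf9 measured 3254 and 2761 FPKM, and KO gave 3562 and 2331. For Bmp15 the WT libraries gave 1664 and 1683 FPKM and the KO libraries 1780 and 1631. By group mean Gdf9 was number 9 and Bmp15 number 30 from the top of 11298 genes in WT, and they were number 12 and number 33 in KO. For both genes the 2 genotypes overlapped, and the KO libraries lay farther apart than the WT libraries.

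The transcription factor genes were lower than the 2 growth factor genes. Nobox, the homeobox factor, stood at 346 and 317 FPKM in WT oocytes, with KO values of 347 and 230. Lhx8, the LIM-homeobox factor, had WT values of 129 and 110 FPKM and KO values of 115 and 122. For Figla the WT values were 64.9 and 76.6 FPKM and the KO values 86.4 and 88.3, so that its groups did not overlap. The receptor gene Kit had WT values of 83.6 and 84.5 FPKM and KO values of 73.5 and 92.3. In WT oocytes the group means fell in the order Gdf9, Bmp15, Nobox, Lhx8, Kit, Figla, and no neighbours in that order overlapped between libraries. The closest neighbours were Kit and Figla, with means of 84.0 ± 0.602 and 70.7 ± 8.26 FPKM (SD, n = 2).

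No difference between KO and WT oocytes passed the test for any of the 6 genes, against 1.62% of all genes called. Values were compared as log2(FPKM + 1) with limma, and a gene was called at a Benjamini-Hochberg adjusted p under 0.05 over all 11298 genes. The added 1 FPKM makes a change look smaller where FPKM are low. At an unadjusted limma p under 0.05 the count was also 0 of 6. Figla had the largest positive value, a log2 fold change of 0.31 ± 0.15 (standard error, SE; adjusted p = 0.694, 95% interval −0.04 to 0.65). For comparison, 10.6% of all genes had both KO oocyte libraries above both WT libraries. The remaining values ran from −0.23 ± 0.34 for Nobox to 0.03 ± 0.17 for Bmp15. The interval for Nobox reached from −0.9997 to 0.54 and that for Gdf9 from −0.84 to 0.73. These intervals are not adjusted for the number of genes tested, so differences of these sizes, and larger ones, could go uncalled. Inha, with an SE of 0.34 like that of Nobox, was not called in oocytes at −1.51.

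**Figure D1:**
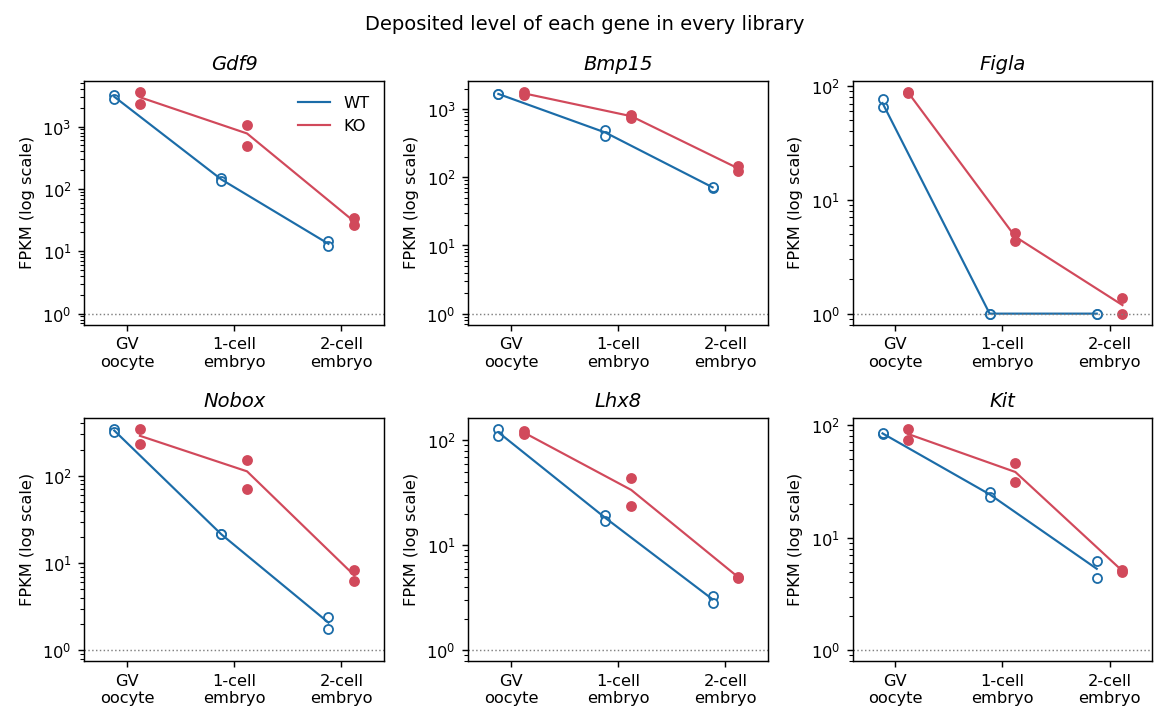
Deposited FPKM of the 6 genes (log axis) in GV oocytes, 1-cell and 2-cell embryos; each point is 1 library, open for WT and filled for KO, lines join group means and the dotted line marks the lowest value of the table, 1 FPKM. At the 1-cell stage both KO libraries lie above both WT libraries for every gene, with Gdf9 and Nobox the farthest apart of the genes detected in both genotypes.

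From the WT oocyte to the WT 1-cell embryo the measured levels fell to different degrees. Polyadenylated RNA was profiled and the length of poly(A) tails was not measured. All changes between stages or genotypes given here are thus of RNA captured as polyadenylated, and the part of tail length in them was not tested. Gdf9 measured 151 and 133 FPKM in WT 1-cell libraries, which was 4.71% of its oocyte mean, and Nobox 21.4 FPKM in both libraries, or 6.45%. Figla was at 1 FPKM in both libraries. Lhx8 was at 19.4 and 17.0 FPKM, 15.3% of its oocyte mean. Bmp15 kept 27.1%, at 497 and 410 FPKM, and Kit kept 28.8%, at 25.4 and 23.0 FPKM. These shares include the library factor, whose basis is unknown. Every library was labelled as 10 oocytes or embryos, but FPKM before the factor hold neither the number of cells nor the RNA per cell. A loss of cells in preparation and less RNA per cell therefore cannot be told apart in such pooled libraries.

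All 6 genes were called lower on the deposited scale, as were 85.8% of all genes. In a fit of the 5537 genes averaging 5 FPKM or more, 5481 were called lower. In the fit of all genes the log2 fold changes were −4.40 ± 0.35 for Gdf9 (limma adjusted p = 2.28e-06), −3.89 ± 0.34 for Nobox (adjusted p = 4.32e-06) and −2.64 ± 0.25 for Lhx8 (adjusted p = 6.36e-06). They were −1.89 ± 0.17 for Bmp15 (adjusted p = 4.95e-06) and −1.76 ± 0.21 for Kit (adjusted p = 3.91e-05). Over the 6245 genes above 1 FPKM in all 4 libraries, which leaves out genes that fell to 1 FPKM as Figla did, the median ratio was a 4.45-fold fall. Gdf9 fell 21.2-fold and Nobox 15.5-fold, which put them at the 6.29th and 10.1th percentile of these genes, whereas Bmp15 (3.69-fold) and Kit (3.47-fold) lay at the 60.9th and 64.6th percentile. Lhx8 fell 6.55-fold and lay at the 32.6th percentile. Before the factor 4 of the 6 genes were called lower, with 27.9% of all genes. These were Figla (−3.65), Gdf9 (−2.34), Nobox (−1.88) and Lhx8 (−0.64, adjusted p = 0.0187). On that scale Bmp15 (0.17, adjusted p = 0.659) and Kit (0.26, adjusted p = 0.32) did not pass and had turned in sign. With quantile normalization Kit was called higher in WT 1-cell embryos than in oocytes (0.82, adjusted p = 0.00199), the call of Lhx8 ended (−0.069, adjusted p = 0.772), and the count was 1 higher and 3 lower.

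From the 1-cell to the 2-cell stage in WT the detected genes fell again. Gdf9 measured 14.4 and 11.9 FPKM in WT 2-cell libraries, Bmp15 70.3 and 72.3, Nobox 2.39 and 1.76, Lhx8 3.29 and 2.83 and Kit 4.42 and 6.15. Figla was at 1 FPKM in all 4 libraries of this comparison. The order of levels had thereby changed, since Bmp15 stood above Gdf9 at both embryo stages and Nobox, above Lhx8 and Kit in oocytes, stood below both at the 2-cell stage. The 5 detected genes were called lower, against 29% of all genes. That share counts genes at 1 FPKM in all 4 libraries, which cannot be called. In the fit of the 5537 genes averaging 5 FPKM or more, 3224 were called lower. In the fit of all genes the log2 fold changes of the 5 genes ran from −3.34 ± 0.35 for Gdf9 (adjusted p = 7.22e-05) to −2.01 ± 0.21 for Kit (adjusted p = 8.42e-05). Gdf9 (10.8-fold), Nobox (10.3-fold), Bmp15 (6.36-fold), Lhx8 (5.95-fold) and Kit (4.58-fold) lay between the 2.55th and the 14.3th percentile of 4551 genes, whose median was a 1.78-fold fall. Before the factor the same 5 were called lower, from −2.42 for Gdf9 to −1.19 for Kit, against 14.9% of all genes.

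**Figure D2:**
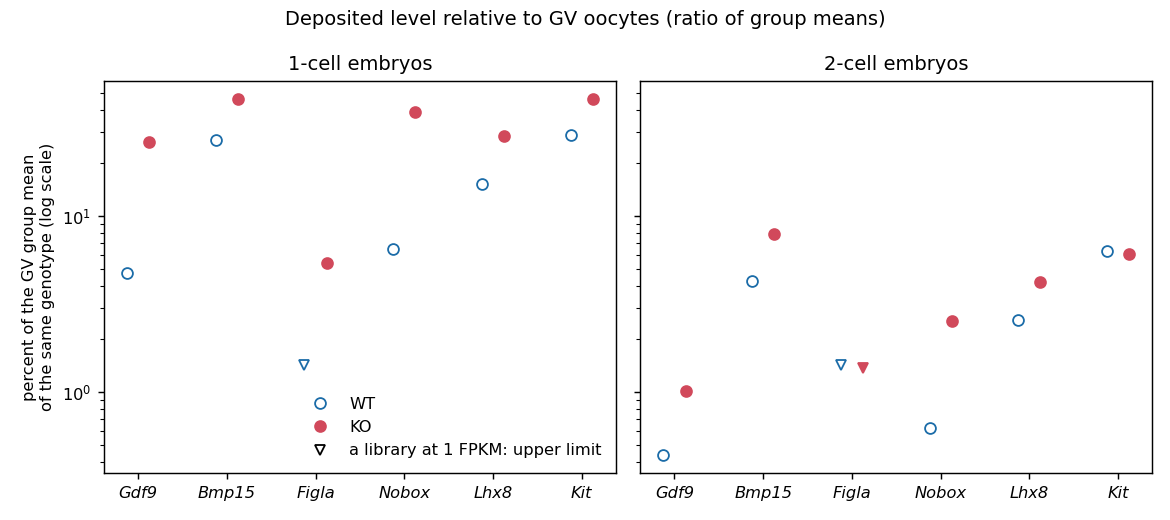
Group mean in 1-cell (left) and 2-cell embryos (right) as a percent of the GV mean of the same genotype (log axis, deposited scale), open for WT and filled for KO; triangles mark groups with a library at 1 FPKM, where the share is an upper limit. At the 1-cell stage Gdf9 stood at 4.71% in WT and 26.2% in KO and Nobox at 6.45% and 39.1%, while at the 2-cell stage Kit stood at 6.29% and 6.10%.

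In KO 1-cell embryos the growth factor gene Gdf9 and the homeobox gene Nobox stood well above WT. Gdf9 measured 494 and 1052 FPKM in KO against 151 and 133 in WT, a 5.45-fold difference of means. Nobox measured 71.4 and 154 FPKM in KO against 21.4 in both WT libraries, a 5.27-fold difference. For both genes KO replicate 2 was about 2 times as high as KO replicate 1, and both KO libraries were above both WT libraries. The log2 fold change was 2.34 ± 0.35 for Gdf9 (limma adjusted p = 0.000881) and 2.24 ± 0.34 for Nobox (adjusted p = 0.000987). Without KO replicate 2 these values were 1.80 and 1.69, and without KO replicate 1 they were 2.89 and 2.79, called in either case.

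Figla was at 1 FPKM in both WT 1-cell libraries and at 5.15 and 4.32 FPKM in KO. Its log2 difference of 1.52 ± 0.15 (adjusted p = 0.00013) has no fixed size, because WT was at the lowest value. Held at 1 FPKM, the WT libraries also had an SD of 0 at both embryo stages. This lowers the spread behind the SE and adjusted p of every call of Figla. Bmp15 measured 754 and 824 FPKM in KO against 497 and 410 in WT, a 1.74-fold difference (0.80 ± 0.17, adjusted p = 0.00425). Lhx8 measured 23.8 and 43.6 FPKM in KO against 19.4 and 17.0 in WT (0.80 ± 0.25, adjusted p = 0.0227). Kit measured 30.9 and 45.5 FPKM in KO against 25.4 and 23.0 in WT (0.61 ± 0.21, adjusted p = 0.0375). The calls of Lhx8 and Kit ended when KO replicate 2 was left out, with Lhx8 at 0.37 (adjusted p = 0.122) and Kit at 0.34 (adjusted p = 0.265). They also ended when WT replicate 2 was left out, with Lhx8 at 0.71 (adjusted p = 0.118) and Kit at 0.54 (adjusted p = 0.158). That of Kit also ended without WT replicate 1 (0.68, adjusted p = 0.0728).

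Thus 6 of 6 genes were called higher in KO 1-cell embryos as deposited, and so were 52.7% of all genes, with 0.0974% called lower. That share counts genes at 1 FPKM in all 4 libraries, which cannot be called. In a fit of the 5537 genes averaging 5 FPKM or more, 4770 were called higher and 11 lower, with a median log2 fold change of 0.96. In the fit of these 4 libraries alone Figla, with both WT values at 1 FPKM, was the single one of the 6 called (adjusted p = 0.0478). Both KO libraries were above both WT libraries for 64.3% of all genes. The median ratio of KO to WT over 6227 genes above 1 FPKM in all 4 libraries was 2.08 on the deposited scale, a log2 value of 1.06, and the log2 value was 0.02 before the factor. Relative to that shift the genes differed in direction. Gdf9 and Nobox lay at the 95.9th and 95.6th percentile of these genes, at 2.63 and 2.54 times the median ratio. Genes at 1 FPKM in a WT library, as Figla was, are not in this set, so the percentiles hold only for genes detected in all 4 libraries. Bmp15, Lhx8 and Kit lay at the 26.9th, 34.4th and 16.6th percentile.

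Before the factor 3 of the 6 genes were called higher, against 8.05% of all genes called higher and 2.89% lower. Gdf9 measured 1143 and 1908 FPKM in KO against 559 and 626 in WT on that scale (log2 fold change 1.32 ± 0.29, adjusted p = 0.0137). Nobox measured 165 and 280 FPKM against 79.4 and 101 (1.26 ± 0.30, adjusted p = 0.01995). Figla had a value of 0.90 ± 0.22 (adjusted p = 0.0253) with WT at the common minimum. Both KO libraries were again above both WT libraries for Gdf9 and Nobox. Bmp15 (−0.22 ± 0.19, adjusted p = 0.761), Lhx8 (−0.20 ± 0.19, adjusted p = 0.835) and Kit (−0.39 ± 0.18, adjusted p = 0.256) had turned to lower values that did not pass. With quantile normalization, which gives all libraries the same distribution, the 3 calls ended for Gdf9 (0.86, adjusted p = 0.0877), Nobox (0.96, adjusted p = 0.0524) and Figla (1.13, adjusted p = 0.0515), and Kit was called lower (−0.59, adjusted p = 0.0236).

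**Figure D3:**
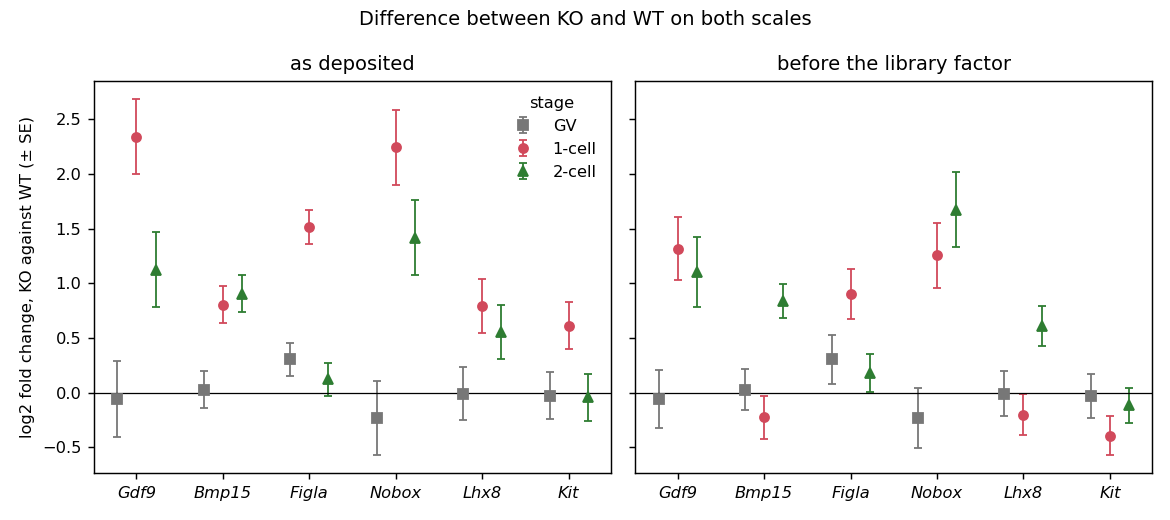
Log2 fold change of KO against WT for each gene at the GV (squares), 1-cell (circles) and 2-cell stage (triangles) from the limma fit, as deposited (left) and before the library factor (right); bars are SE. Gdf9 and Nobox at the 1-cell stage stay above 0 on both scales (2.34 and 2.24, then 1.32 and 1.26), whereas Bmp15, Lhx8 and Kit change sign.

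In 2-cell embryos Bmp15 and Nobox were called higher in KO, while the libraries of Kit overlapped. Bmp15 measured 124 and 146 FPKM in KO against 70.3 and 72.3 in WT, a 1.89-fold difference (log2 fold change 0.91 ± 0.17, limma adjusted p = 0.00483). Nobox measured 6.18 and 8.34 FPKM in KO against 2.39 and 1.76 in WT, a 3.49-fold difference (1.42 ± 0.34, adjusted p = 0.017). The call of Nobox ended without WT replicate 1 (1.57, adjusted p = 0.073), without WT replicate 2 (1.27, adjusted p = 0.149) or without KO replicate 2 (1.23, adjusted p = 0.127), while that of Bmp15 held without each of the 4 libraries.

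Gdf9 measured 26.5 and 33.5 FPKM in KO 2-cell embryos against 14.4 and 11.9 in WT, a 2.28-fold difference of means that did not pass (1.13 ± 0.35, adjusted p = 0.0507). Lhx8 measured 4.92 and 5.01 FPKM against 3.29 and 2.83 (0.56 ± 0.25, adjusted p = 0.177). For these 4 genes both KO libraries lay above both WT libraries, as did those of 18.8% of all genes. Kit measured 4.96 and 5.15 FPKM in KO, between the 2 WT libraries at 4.42 and 6.15, with a log2 fold change of −0.04 and a 95% interval of −0.53 to 0.44. Figla was at 1 and 1.38 FPKM in KO and at 1 in WT.

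The count at the 2-cell stage was 2 of 6 called higher, beside 7.56% of all genes called higher and 12% lower. In the fit of the 5537 genes averaging 5 FPKM or more, 3 of the 6 were called higher, beside 977 genes higher and 1071 lower. In the fit of these 4 libraries alone the count was 0, with Nobox at a limma adjusted p of 0.0604 and Bmp15 at 0.0641, and 4 of 6 at an unadjusted p under 0.05. Before the factor it was 4 of 6, beside 11.1%. There the log2 fold changes were 1.67 for Nobox (adjusted p = 0.00928), 1.10 for Gdf9 (adjusted p = 0.038), 0.84 for Bmp15 (adjusted p = 0.00551) and 0.61 for Lhx8 (adjusted p = 0.0439). The factors of the WT and KO 2-cell libraries were close, and the median log2 ratio over 3949 genes was 0.13 as deposited and 0.05 before the factor. Among those genes Nobox lay at the 96.9th, Gdf9 at the 90.1th, Bmp15 at the 83.8th, Lhx8 at the 75.9th and Kit at the 41.2th percentile.

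The fall from the oocyte to the 1-cell embryo was smaller in KO for 4 genes as deposited, by the test of the difference between the 2 changes. The difference was 2.47 ± 0.48 for Nobox (limma adjusted p = 0.00667), 2.398 ± 0.49 for Gdf9 (adjusted p = 0.00792), 1.21 ± 0.21 for Figla (adjusted p = 0.00476) and 0.78 ± 0.24 for Bmp15 (adjusted p = 0.0319), while 38.7% of all genes were called in that direction. Lhx8 (0.80 ± 0.35, adjusted p = 0.0904) and Kit (0.64 ± 0.30, adjusted p = 0.115) did not pass. The 38.7% counts genes at 1 FPKM throughout, which cannot be called. In the fit of the 5537 genes averaging 5 FPKM or more, 3929 were called in that direction, with 5 of the 6 among them. Before the factor 0 of 6 were called, beside 4.04% of all genes. Nobox (1.49 ± 0.42, adjusted p = 0.0775) and Gdf9 (1.38 ± 0.41, adjusted p = 0.0961) came closest there, and at an unadjusted limma p under 0.05 these 2 passed. The value of Bmp15 turned to −0.25 before the factor, and with a replicate block its call as deposited ended (adjusted p = 0.0546).

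In KO the step from oocyte to 1-cell embryo was called lower for 6 of 6 genes as deposited, beside 66.9% of all genes, from −3.95 ± 0.15 for Figla to −1.11 for Bmp15 and Kit. In the fit of the 5537 genes averaging 5 FPKM or more, 4205 were called lower in this step. Before the factor 3 of 6 were called lower, beside 26.4%, namely Figla (−3.05), Gdf9 (−0.96, adjusted p = 0.00945) and Lhx8 (−0.83, adjusted p = 0.00347), while Nobox (−0.39, adjusted p = 0.304) did not pass. From the 1-cell to the 2-cell stage the KO transcripts fell by large factors as well. On the deposited scale 6 of 6 were called lower in KO, as were 60.7% of all genes, with Gdf9 the farthest (−4.55 ± 0.35, adjusted p = 6.02e-06, a 25.8-fold fall of the mean). Of the 5537 genes averaging 5 FPKM or more, 5174 were called lower in their own fit. Before the factor 5 of 6 were called lower, Figla being the exception, beside 16.7% of all genes. There the values were −2.63 for Gdf9, −1.89 for Nobox, −0.92 for Kit, −0.73 for Lhx8 and −0.59 for Bmp15. The difference between KO and WT in this step passed for Figla as deposited (−1.39 ± 0.21, adjusted p = 0.00147), with WT at 1 FPKM at both stages, beside 35.7% of all genes called in that direction. Before the factor it passed for Bmp15, whose fall was smaller in KO (1.07 ± 0.22, adjusted p = 0.0134), beside 5.91%.

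Ratios between 2 genes within a library do not depend on the library factor, and they separated the genes as well. The ratio of Gdf9 to Bmp15, the 2 growth factor genes, was 1.96 and 1.64 in WT and 2.00 and 1.43 in KO oocytes. In 1-cell embryos it was 0.303 and 0.324 in WT and 0.655 and 1.28 in KO, with no overlap. In 2-cell embryos it was 0.204 and 0.165 in WT and 0.214 and 0.230 in KO. Transcripts of Gdf9 thus went from above those of Bmp15 to below them in both genotypes, and in WT this was already so in both 1-cell libraries, whereas 1 of 2 KO 1-cell libraries still had more Gdf9.

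The ratio of Nobox to Lhx8, the 2 homeobox genes, was 2.69 and 2.89 in WT and 3.03 and 1.88 in KO oocytes. In 1-cell embryos it was 1.10 and 1.26 in WT and 2.99 and 3.54 in KO, and in 2-cell embryos 0.729 and 0.623 in WT and 1.26 and 1.66 in KO. The KO 1-cell libraries thus lay near or above the highest oocyte value, and the genotypes did not overlap at either embryo stage. Gdf9 and Nobox, in contrast, kept nearly the same ratio to each other in both genotypes at the 1-cell stage, at 7.04 and 6.22 in WT and 6.92 and 6.82 in KO, against 8.71 to 10.3 in oocytes. At the 2-cell stage this ratio was lower in KO, at 4.28 and 4.02 against 6.01 and 6.77. The ratio of Bmp15 to Kit overlapped between genotypes at the 1-cell stage, at 19.6 and 17.8 in WT and 24.4 and 18.1 in KO. Ratios were computed for all 15 pairs of the 6 genes and are given as a description, without a test.

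**Figure D4:**
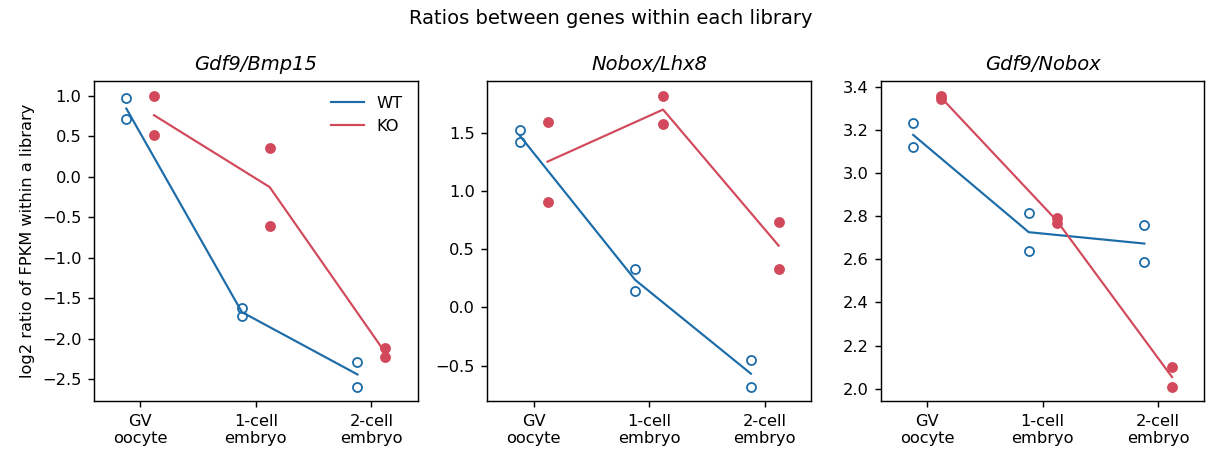
Log2 ratio of the FPKM of 2 genes within each library for Gdf9 to Bmp15, Nobox to Lhx8 and Gdf9 to Nobox, by stage; points are single libraries, open for WT and filled for KO, lines join group means, and each panel has its own vertical range. In 1-cell embryos the first 2 ratios are higher in both KO libraries than in both WT libraries, while Gdf9 to Nobox overlaps (2.64 and 2.82 in WT, 2.77 and 2.79 in KO).

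The profiles of other genes were compared with each member by Pearson's r over the log2(FPKM + 1) values of the 12 libraries, among 5695 genes with a group mean of at least 10 FPKM. These libraries share the stage steps and library factors, so high values are common. Nobox was the third closest gene to Gdf9 (r = 0.998) and Gdf9 the closest to Nobox, and the r between them before the factor was 0.984. The closest to Gdf9 was Immt, which encodes a mitochondrial inner membrane organizer, and the closest to Bmp15 was Nlrp9a of the NLR family, followed by Cd55 and Sec23a. Figla was closest to Tnni3, AI316807 and Fam47e, which were also at or near 1 FPKM in WT 1-cell embryos. Lhx8 was closest to Gdpd1, Emp2 and Uchl1, a ubiquitin hydrolase gene that is abundant in oocytes, and Kit to Eprs, Cdc25a and Med23. Usp2 was the second closest to Gdf9 and to Nobox, but its r before the factor was 0.833 with Gdf9 and 0.901 with Nobox. Rsrc1 was the third closest to Nobox, with an r of 0.787 before the factor. For r before the factor no common minimum was applied, so 1 FPKM became a different value in each embryo library. This affects genes at 1 FPKM, such as Rsrc1 in WT 2-cell embryos.

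Genes around the growth factors were given from lists of known pathway members. Their counts stand beside the shares of all genes called in KO, which at the 1-cell stage were 52.7% higher as deposited and 8.05% before the factor, and at the 2-cell stage 7.56% higher and 12% lower as deposited and 11.1% and 18.7% before the factor. Of 31 genes for TGF-beta family receptors, SMADs, processing enzymes and antagonists 21 were in the table. In KO 1-cell embryos 13 of 21 were called higher and 0 lower, a share near that of all genes (52.7%), with a median log2 fold change of 0.66 beside 0.57 over all genes, and before the factor 0 were called, while quantile normalization gave 0 higher and 3 lower. The largest were the proprotein convertase gene Furin (1.28 ± 0.27, limma adjusted p = 0.00421), the type I receptor gene Bmpr1b (1.04 ± 0.16, adjusted p = 0.00114) and the ubiquitin ligase gene Smurf2 (1.00 ± 0.20, adjusted p = 0.0037). Their values before the factor were 0.51, 0.095 and 0.057. In KO 2-cell embryos Smurf2 (0.74) and the signal transducer gene Smad1 (0.74) were called higher, 0 genes were called lower and the median was 0, as over all genes. Before the factor 3 were called higher and 1 lower there, and with quantile normalization 6 and 1. In oocytes 1 of the 21, the receptor gene Acvr1, was called lower (−0.70, adjusted p = 0.041), a gene singled out after its values were seen, which did not pass before the factor (adjusted p = 0.29). Of 17 other TGF-beta family ligand genes 6 were in the table. As deposited, 3 of these were called higher in KO 1-cell embryos, Bmp6 (1.03), Bmp5 (0.84) and Tgfb2 (0.77), against 0 before the factor and 2 called lower with quantile normalization. These 3 of 6 are also near the share of all genes, and the median was 0.56 beside 0.57. In KO 2-cell embryos Tgfb2 was called higher, at 37.9 and 38.2 FPKM against 13.5 and 14.1 (1.40 ± 0.20, adjusted p = 0.00116, and 1.38 before the factor).

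Of 31 genes for KIT ligand and KIT signalling 29 were in the table. Kitl itself measured 1.77 to 2.61 FPKM in oocytes and 1 to 1.18 in embryos. In KO 1-cell embryos 22 of 29 were called higher and 0 lower, beside 52.7% of all genes higher (median 0.69 beside 0.57). Of the 5537 genes averaging 5 FPKM or more, 4770 were called higher, with a median of 0.96. Before the factor 2 of the 29 were called higher and 1 lower, beside 8.05% and 2.89% of all genes, and with quantile normalization 5 and 3. The largest was Cdkn1b, which encodes the cell cycle inhibitor p27, at 14.1 and 14.9 FPKM in KO against 1.63 and 1.26 in WT (2.67 ± 0.15, adjusted p = 1.11e-05, and 2.13 before the factor). The kinase gene Fyn (1.65, and 0.71 before the factor) followed. In KO 2-cell embryos 6 of 29 were called higher and 2 lower, beside 7.56% and 12% of all genes, and before the factor 6 and 5, beside 11.1% and 18.7%. Of the 5537 genes averaging 5 FPKM or more, 977 were called higher and 1071 lower at this stage in their own fit. Cdkn1b (1.52, with WT at 1 FPKM) and Fyn (1.78) were again higher, and Rps6, a ribosomal protein gene downstream of the pathway, was lower, at 6.32 and 2.41 FPKM against 18.5 and 21.3 (−2.06 ± 0.30, adjusted p = 0.00126).

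Of 15 genes for other oocyte transcription regulators and partners of FIGLA and LHX8, 13 were in the table. In KO 1-cell embryos 6 of 13 were called higher and 0 lower, near or below the 52.7% of all genes called higher, with a median of 0.44 beside 0.57. They were led by Ldb1 (1.499), which encodes the cofactor of LIM-homeobox proteins, by the TATA-binding protein paralog gene Tbpl2 (1.12) and by Tcf3 (0.76), which encodes E-protein partners of FIGLA. Before the factor 0 of the 13 were called higher and 1 lower, and with quantile normalization 0 were called. None of these 3 passed before the factor (0.64, 0.38 and 0.099). In KO 2-cell embryos Id1, which encodes an inhibitor of E-proteins, was the 1 gene of the list called, lower where 12% of all genes were, at 1 FPKM in both KO libraries against 2.04 and 2.78 in WT (adjusted p = 0.00115).

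Oocyte genes known to depend on NOBOX or FIGLA had all 20 list members in the table. In KO 1-cell embryos 18 of 20 were called higher and 0 lower, beside 52.7% of all genes higher, with a median log2 fold change of 1.07 beside 0.57 over all genes. The list was nearer to the 5537 genes averaging 5 FPKM or more, of which 4770 were called higher, with a median of 0.96. Before the factor 3 of the 20 were called higher and 0 lower, beside 8.05% and 2.89% of all genes (median 0.065 beside 0), and with quantile normalization 1 and 0. The kinase gene Mos measured 30.8 and 43.6 FPKM in KO against 3.14 and 4.49 in WT (2.98 ± 0.20, adjusted p = 2.2e-05, and 2.18 before the factor). The oocyte linker histone gene H1foo (2.16, and 1.13 before the factor) and the arginine deiminase gene Padi6 (1.69, and 0.66 with adjusted p = 0.246 before the factor) came next. In KO 2-cell embryos 10 of the 20 were called higher and 0 lower, beside 7.56% and 12% of all genes. Of the 5537 genes averaging 5 FPKM or more, 977 were called higher and 1071 lower at this stage in their own fit. For the list the counts were also 10 and 0 before the factor, beside 11.1% and 18.7%, and 11 and 1 with quantile normalization. Its median as deposited was 0.75 beside 0 over all genes. The largest were the NLR family genes Nlrp4f, at 46.6 and 51.7 FPKM against 11.4 and 8.63 (2.199 ± 0.22, adjusted p = 0.00017), and Nlrp4a (1.94), and the chromatin gene Npm2 (1.63). Mos, in contrast, was at 1 FPKM in all 4 2-cell libraries. These lists were chosen with earlier results of these data known.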

How the data were processed

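The authors deposited 1 table of FPKM values for 12 Smart-seq2 libraries, made with TopHat2 2.1.1, Cufflinks 2.2.1 and mouse build mm9, per the submitters' processing notes. An incomplete last entry was left out, and genes after Zc3h14 in the alphabet were not analysed here. The library factor was found as the greatest common divisor of the values above 1 in each column. After division 100% of them were 6-digit numbers, to within 0.01 of their last digit. Log2(FPKM + 1) values of all 12 libraries entered 1 fit (limma 3.58.1, R 4.3.3, group means, intensity trend, two-sided, Benjamini-Hochberg). The fit was also run on simulated data with independent noise. These had no library factor and no limit at 1 FPKM, so that run cannot show how the fit performs on the deposited values. FPKM carry no read counts, so no counting interval is given. Values after ± are SD beside FPKM and SE beside log2 fold changes. The alternatives were a pseudocount of 0.1 FPKM, only genes averaging 5 FPKM or more, values before the factor, median-ratio size factors, quantile normalization, only the groups compared, no trend, a replicate block and leaving out each library. Each member was named, with up to 3 list genes of largest absolute change among those called per embryo stage and the 3 genes of highest r. A list gene that this rule names is not reported here. The members and lists were chosen with earlier results of these data known. Older symbols were matched through RefSeq synonyms.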

Additional observations from a re-analysis of the deposited data

Results flagged for a closer look

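The change from GV oocyte to 1-cell embryo differed between KO and WT, by the test of the difference itself, for Nobox (2.47 on the log2 scale), Gdf9 (2.398), Figla (1.21) and Bmp15 (0.78), each with a smaller fall in KO on the deposited scale. For Bmp15 the direction turned before the factor (−0.25), with size factors (−0.32) and with quantile normalization (−0.29), and its call ended with a replicate block (adjusted p = 0.0546). The change from the 1-cell to the 2-cell stage differed for Figla (−1.39), with WT at 1 FPKM at both stages. Before the factor none of the 5 passed. The library factor differed between the genotypes at the 1-cell stage, and its part in these results was not tested beyond the values before the factor and with the other rescalings.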

How the results depend on the processing

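Of the 54 log2 fold changes behind the counts, the alternatives other than leaving out a library gave 341 values that kept their direction and their side of the threshold, 38 that were no longer called, 14 that became called and 39 that reversed, each of the 39 with a rescaling (11 before the factor, 13 after division by median-ratio size factors, 15 after quantile normalization). The cause was not tested beyond that.

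The count called higher in KO 1-cell embryos, 6, was 3 before the factor and with size factors and 1 in the 4 libraries alone. With quantile normalization 1 gene was called lower and 0 higher. The count falling from WT oocyte to 1-cell, 6, was 4 before the factor and with size factors, and with quantile normalization 3 fell and 1, Kit, was called higher. The 2-cell count, 2, was 4 before the factor, with size factors and with quantile normalization, 0 in the 4 libraries alone and 1 to 2 without 1 library. The count of genes falling from KO oocyte to 1-cell, 6, was 3 before the factor, with size factors and in the groups compared alone, and 2 with quantile normalization. The count whose fall to the 1-cell stage differed between genotypes, 4, was 0 before the factor and with quantile normalization and 2 with size factors. For the step to the 2-cell stage the count, 1, was 2 for genes averaging 5 FPKM or more and 1 to 5 without 1 library, and the direction reversed before the factor (1), with size factors (2) and with quantile normalization (3).

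Reversed values are given in the order before the factor, size factors, quantile normalization. For KO against WT at the 1-cell stage they were −0.22, −0.28 and −0.35 for Bmp15, −0.20, −0.25 and −0.38 for Lhx8 and −0.39, −0.44 and −0.59 for Kit. For WT 1-cell against GV they were 0.17, 0.17 and 0.12 for Bmp15 and 0.26, 0.25 and 0.82 for Kit. For the genotype difference to the 1-cell stage they were −0.25, −0.32 and −0.29 for Bmp15, −0.19, −0.255 and −0.36 for Lhx8 and −0.36, −0.42 and −0.57 for Kit. For that from the 1-cell to the 2-cell stage they were 0.42, 0.40 and 0.90 for Nobox, 0.81, 0.83 and 1.24 for Lhx8 and 0.27, 0.33 and 0.70 for Kit. With quantile normalization alone it was 0.12 for Gdf9 in that difference, −0.066 for Bmp15 in oocytes, 0.11 for Kit between 2-cell genotypes and 0.25 for Kit in KO 1-cell against GV. With size factors alone it was 0.0082 for Lhx8 in oocytes and 0.0054 for Figla in KO 2-cell against 1-cell.

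Leaving out 1 library reversed uncalled values only. In oocytes these ranges were −0.36 to 0.25 for Gdf9, −0.037 to 0.089 for Bmp15, −0.53 to 0.066 for Nobox, −0.12 to 0.11 for Lhx8 and −0.19 to 0.13 for Kit. For Kit between 2-cell genotypes the range was −0.24 to 0.16. For the genotype difference from the 1-cell to the 2-cell stage it was −0.037 to 0.24 for Bmp15 and −0.66 to 0.18 for Lhx8.

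Over all genes, KO 1-cell calls numbered 5950 higher and 11 lower as deposited, 909 and 327 before the factor, 1179 and 4341 with size factors, 1445 and 1856 with quantile normalization and 608 and 1 in the 4 libraries alone. At the 2-cell stage they numbered 854 and 1357 as deposited, 1254 and 2118 before the factor, 1291 and 2263 with size factors, 2705 and 2169 with quantile normalization and 354 and 595 in the 4 libraries alone. In oocytes they numbered 66 and 117 as deposited and 2 and 2 before the factor. FPKM without counts leave the depth unknown, and 2 libraries in each group limit every test.

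The replicate numbers of the labels name no shared animal or day, and same-numbered libraries deviated together at r of −0.40 to 0.17 across genes between groups. A replicate block ended 1 call, that of Bmp15 in the genotype difference to the 1-cell stage (0.78, adjusted p = 0.0546), and changed no other call.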
